A study of Mus musculus with 4 samples.

Results

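The genes described are 9 genes of bone morphogenetic protein (BMP) and activin signalling, taken by gene symbol from a list drawn up with earlier results of these data known: the BMP ligands Bmp2 and Bmp4, the activin subunit Inhba, the secreted antagonists Grem1 and Fst, the receptor Bmpr1a, and the target genes Id1, Id2 and Id3. All 9 were listed in each of the 3 deposited tables, which hold 14208, 15009 and 14679 genes. Of the 70 other genes of the pathway looked up, 52 were listed in at least 1 table.

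RNA was sequenced from cultured adipose progenitors of C57BL/6 mice, sorted with magnetic beads from fat (SAT or VAT in the labels) for CD137 or for PDGFRα (CD140 in the sample titles). The cells were given an adipogenic cocktail and then, at 1 µM, the synthetic glucocorticoid dexamethasone (DEX), or PBS without it. The labels give 4 samples: CD137+ with PBS, CD137+ with DEX, PDGFRα+ with PBS and PDGFRα+ with DEX, 1 sample for each, all of the same strain and all taken through the same cocktail. The sources used here do not say which depot each cell type came from, how old or how many the mice were, or whether they were pooled. Each group being 1 sample, the differences could not be checked against replicates and no p-value was computed.

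Values are FPKM (read fragments relative to transcript length and to the mapped total), so levels of different genes can be set side by side. The tables hold 6 columns of values for the 4 samples, because each DEX label occurs in 2 tables with different values. The columns are therefore treated as 6 libraries and named by label and by the number in the table's sheet title. CD137+ PBS and CD137+ DEX 1 come from the CD137+ table, PDGFRα+ PBS and PDGFRα+ DEX 1 from the PDGFRα+ table, and CD137+ DEX 2 and PDGFRα+ DEX 2 from the table that compares the cell types. The sheet number of CD137+ PBS is 1 and that of PDGFRα+ PBS is 2. The sources used here do not say what the number stands for. Log2 differences were taken after adding 1 FPKM, which makes those of low genes smaller, and are given relative to the median gene of the pair of libraries, whose shift was 0.05 (CD137+ table), 0.24 (PDGFRα+ table) and -0.22 (between-type table). A gene is called apart where this difference reached 2-fold and its higher level was 1 FPKM or above.

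The libraries did not sort by their labels alone. Each library listed 11971 to 12465 genes at 1 FPKM or more, and the sum of FPKM was 430997 to 449283. CD137+ DEX 2 and PDGFRα+ DEX 1 stood apart from the rest. The sum of 7 adipocyte genes (Adipoq, Pparg, Fabp4, Cebpa, Plin1, Lpl, Cidec) was 339 and 202 FPKM there, against 1006 to 3207 FPKM in the other 4 libraries. The sum of 7 cell division genes was 256 and 186 FPKM there, against 39.2 to 146 FPKM. Markers of other cells ranged from 12.5 to 32.9 FPKM in sum for 6 endothelial genes, 262 to 3358 FPKM for 7 mural and smooth muscle genes, 6.92 to 452 FPKM for the listed ones of 7 mesothelial genes and 13.5 to 35.9 FPKM for those of 6 macrophage genes. The macrophage marker Adgre1 was not listed. The leukocyte marker Ptprc was listed in the PDGFRα+ table alone, at 0 in PBS and 0.505 FPKM in DEX 1. The other macrophage genes were present in every library: Cd14 at 5.43 to 23.8 FPKM, Lyz2 at 4.53 to 6.10, Cd68 at 1.17 to 5.44 and Csf1r at 0.897 to 1.74. The sum of 7 progenitor and fibroblast genes was 1905 and 1519 FPKM in the libraries that stood apart, against 4093 to 5468 FPKM in the other 4, and Pdgfra among them stood at 67.7 and 57.9 FPKM against 136.7 to 164 FPKM. Tnfrsf9, the gene of CD137, had no entry in the CD137+ table, and its level was 0.161 FPKM in CD137+ DEX 2 but 1.62 to 4.81 FPKM in the PDGFRα+ libraries. Of 8 glucocorticoid-induced genes, 1 was higher and 1 lower with DEX in the CD137+ table, where 1.06% of all genes were apart. In the PDGFRα+ table none was higher and 5 were lower (21.1% of all genes apart). In CD137+ DEX 2 against PBS 1 was higher and 3 were lower (12% of all genes apart). In PDGFRα+ DEX 2 against PBS none was apart (0.169% of all genes). Tsc22d3 was lower in 3 of the 4 libraries labelled DEX (28.7 to 38.5 FPKM) than with PBS (76.1 and 113 FPKM), whereas Sgk1 stood at 67.8 FPKM in CD137+ PBS and at 117 and 189 FPKM in the CD137+ libraries labelled DEX, and Dusp1 at 39.25 FPKM in CD137+ PBS and 135 FPKM in CD137+ DEX 1. Cell type and treatment are thus names taken from the labels.

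BMPs and activins are secreted dimers of the TGF-β superfamily. BMPs bind type I receptors such as BMPR1A together with a type II receptor, and the signal is carried by Smad1, Smad5 and Smad9, whereas activins signal through Smad2 and Smad3. Gremlin 1 traps BMPs outside the cell and follistatin traps activins. The Id genes are direct targets of BMP signalling, and their products hold back basic helix-loop-helix transcription factors by binding their E protein partners. In fat, BMP4 commits mesenchymal precursors to the adipocyte lineage, and activin A keeps progenitors dividing and undifferentiated.

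**Figure D1:**
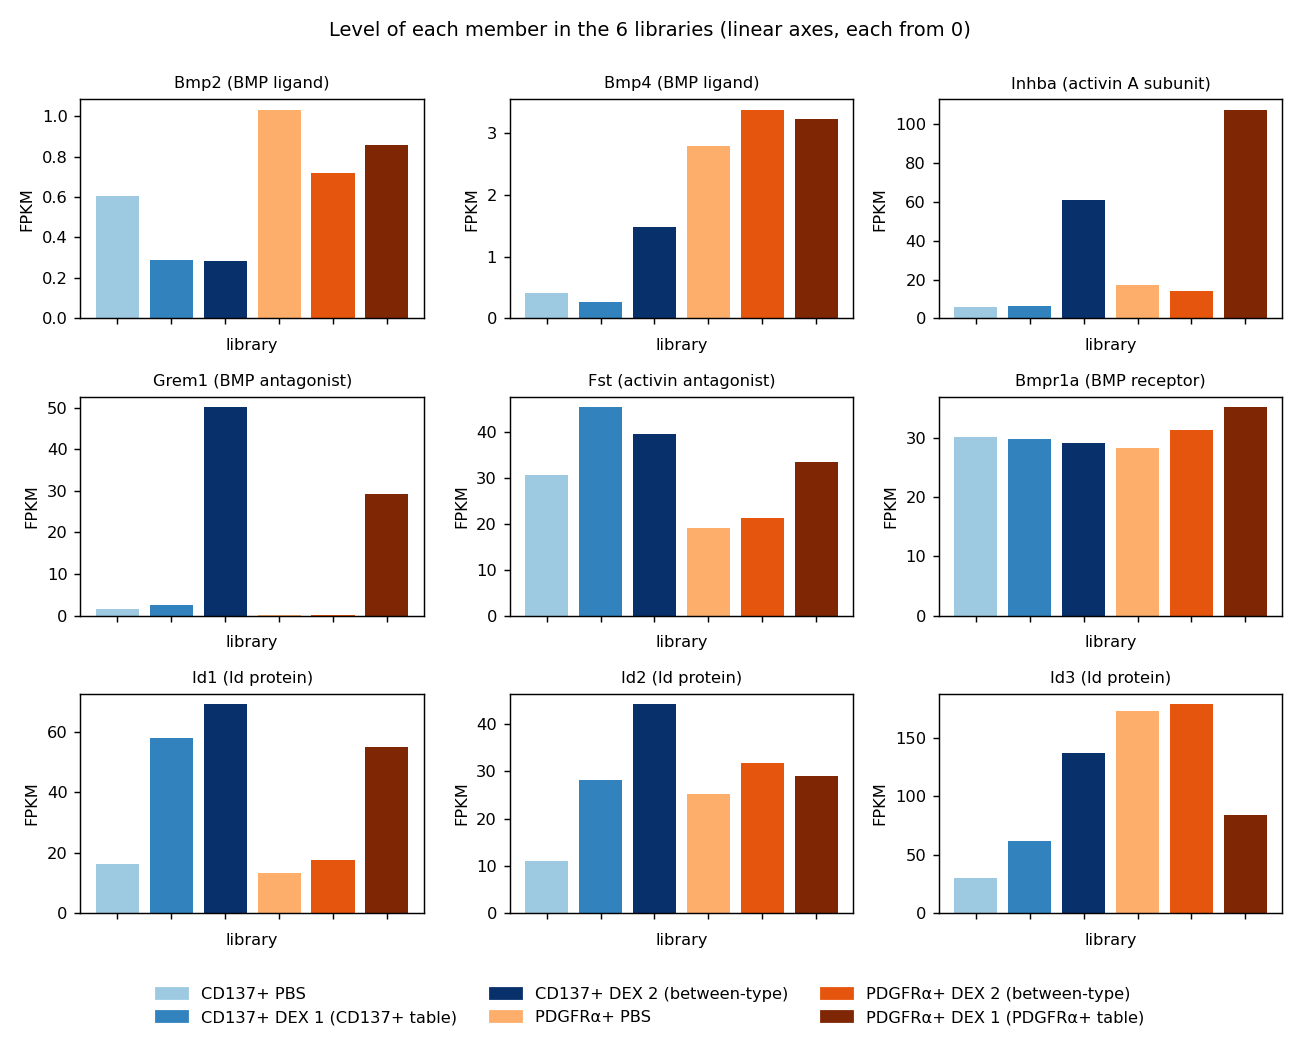
FPKM (vertical axes, linear, each from 0) of the 9 genes in the 6 libraries (horizontal axes, 1 bar per library, no error bars because there is 1 sample per group). Grem1 and Inhba stand highest in CD137+ DEX 2 and PDGFRα+ DEX 1, Id1 is at 55.2 to 69.3 FPKM in 3 of the 4 libraries labelled DEX, and Bmpr1a is level.

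The BMP ligand genes were low in every library, and Bmp4 was lower in the CD137+ libraries than in the PDGFRα+ ones. Bmp4 (ENSMUSG00000021835, GRCm38 chromosome 14, 46383520 to 46390669, minus strand) stood at 0.413 FPKM in CD137+ PBS, 0.271 in CD137+ DEX 1, 1.47 in CD137+ DEX 2, 2.79 in PDGFRα+ PBS, 3.23 in PDGFRα+ DEX 1 and 3.38 in PDGFRα+ DEX 2. The 3 PDGFRα+ libraries thus lay close together and above the 3 CD137+ libraries. How many of all genes part the libraries in this way was not computed. CD137+ DEX 2 differed from PDGFRα+ DEX 1 by -0.79 log2 units, short of 2-fold. Between the cell types the log2 difference with DEX 2 was 1.04, a ratio of 2.30, and across tables with PBS it was 1.56, a ratio of 6.75. Between DEX and PBS Bmp4 differed by -0.08 in the PDGFRα+ table and by -0.20 in the CD137+ table, where both values were under 1 FPKM. The other ligand gene, Bmp2 (ENSMUSG00000027358, chromosome 2, 133552159 to 133562885, plus strand), reached 1 FPKM in a single library. Its levels were 0.607 FPKM in CD137+ PBS, 0.291 in CD137+ DEX 1, 0.283 in CD137+ DEX 2, 1.03 in PDGFRα+ PBS, 0.858 in PDGFRα+ DEX 1 and 0.720 in PDGFRα+ DEX 2. The CD137+ libraries were again the lower ones, and within each cell type PBS was the highest library. None of these Bmp2 differences reached 2-fold on the scale used.

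Inhba, which encodes the βA subunit that pairs with itself to form activin A, was highest in the libraries that stood apart. Inhba (ENSMUSG00000041324, chromosome 13, 16011851 to 16031621, plus strand) stood at 5.79 FPKM in CD137+ PBS, 6.24 in CD137+ DEX 1, 60.8 in CD137+ DEX 2, 17.1 in PDGFRα+ PBS, 107 in PDGFRα+ DEX 1 and 14.2 in PDGFRα+ DEX 2. The order therefore ran from the level pair of CD137+ PBS and DEX 1, through the level pair of PDGFRα+ DEX 2 and PBS, to the highest pair. PDGFRα+ DEX 1 was 2.34 log2 units above PDGFRα+ PBS, a ratio of 6.29, and CD137+ DEX 1 differed from CD137+ PBS by 0.04. Set across tables, CD137+ DEX 2 was 3.06 above CD137+ PBS, and PDGFRα+ DEX 2 was -0.29 from PDGFRα+ PBS. Between the cell types with DEX 2, PDGFRα+ differed by -1.81, whereas with PBS it was 1.55 higher across tables. The direction between cell types therefore differed between the DEX 2 and the PBS libraries, and between the libraries numbered 1 it was 3.83. The libraries highest in Inhba also had the 2 lowest sums of adipocyte and of progenitor and fibroblast markers and the 2 highest of cell division genes. All the adipocyte genes but Pparg, and Pdgfra, Cd34, Dcn and Col1a1, were lowest there. Thy1 was highest in CD137+ DEX 2 (58.8 FPKM), and Pdgfrb there (94.4 FPKM) was level with CD137+ PBS (94.5 FPKM). Pparg (14.2 FPKM) and Ly6a (324 FPKM) in CD137+ DEX 2 were above PDGFRα+ PBS (7.68 and 263 FPKM). PDGFRα+ DEX 1 had the highest sum of mural markers. Its mesothelial sum was also the highest, through the keratin genes Krt8 (205 FPKM), Krt18 (160 FPKM) and Krt19 (60.3 FPKM), while Msln (11.97 FPKM with PBS and 5.299 in DEX 1) and Wt1 (44.2 and 15.9 FPKM) were lower and the median of the 7 genes was -0.52. The part of these in the Inhba level was not tested. In bulk RNA, fewer cells of a type and less RNA per cell cannot be told apart.

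Grem1, which encodes the BMP antagonist gremlin 1, had the widest range among the 9 genes. Grem1 (ENSMUSG00000074934, chromosome 2, 113746164 to 113758646, minus strand) stood at 1.53 FPKM in CD137+ PBS, 2.53 in CD137+ DEX 1, 50.2 in CD137+ DEX 2, 0.225 in PDGFRα+ PBS, 29.4 in PDGFRα+ DEX 1 and 0.233 in PDGFRα+ DEX 2. The 6 levels formed 3 pairs, the members of each pair within 2-fold of each other: PDGFRα+ PBS with DEX 2, CD137+ PBS with DEX 1, and the 2 libraries that stood apart. Across tables, PDGFRα+ PBS differed from CD137+ PBS by -0.91, short of 2-fold on the scale used, and was apart from CD137+ DEX 1. The values of PDGFRα+ PBS and PDGFRα+ DEX 2 were under 1 FPKM. PDGFRα+ DEX 1 lay 4.39 log2 units above PBS, and PDGFRα+ DEX 2 differed from PBS by -0.022. CD137+ DEX 1 lay 0.43 above PBS, short of 2-fold, and CD137+ DEX 2 lay 4.21 above it across tables. In the between-type table the difference was -5.16, with CD137+ DEX 2 at 216 times the FPKM of PDGFRα+ DEX 2. The sums of adipocyte, progenitor and cell division markers stood to Grem1 as they did to Inhba, and their part was not tested. Per length, Grem1 was 28.6 times the sum of Bmp2 and Bmp4 in CD137+ DEX 2 and 7.18 times it in PDGFRα+ DEX 1. Grem1 was also above that sum in CD137+ DEX 1 (4.497 times) and in CD137+ PBS (1.504 times). In PDGFRα+ PBS and PDGFRα+ DEX 2 it was 0.0589 and 0.0567 times the sum. The sum of these ligand genes was low, at 0.562 to 4.101 FPKM, and leaves out Bmp6 (2.299 to 9.222 FPKM).

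Because Grem1 and Inhba were highest in the same libraries, the 250 bases before their annotated starts are shown, from RefSeq's GRCm38.p6 promoter table, in which 6 of the 9 genes were found (Bmp4, Grem1, Inhba, Id2, Id3 and Bmpr1a). The Grem1 window is chr2:113758649-113758898 on the minus strand and the Inhba window chr13:16011601-16011850 on the plus strand, both written 5′ to 3′ in the direction of the gene. Capitals mark the matches to 5 motifs searched on both strands: GGCGCC, the core of BMP response elements, GGAATG, bound by TEAD factors, AGAACA, a short element of the glucocorticoid receptor, TGANTCA, bound by AP-1, and the TATA box TATAAA.
Grem1: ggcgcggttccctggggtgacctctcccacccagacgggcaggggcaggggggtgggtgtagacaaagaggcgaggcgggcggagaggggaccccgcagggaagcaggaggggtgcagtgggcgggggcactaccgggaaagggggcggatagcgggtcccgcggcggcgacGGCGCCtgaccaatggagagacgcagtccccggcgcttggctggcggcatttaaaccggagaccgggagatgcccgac
Inhba: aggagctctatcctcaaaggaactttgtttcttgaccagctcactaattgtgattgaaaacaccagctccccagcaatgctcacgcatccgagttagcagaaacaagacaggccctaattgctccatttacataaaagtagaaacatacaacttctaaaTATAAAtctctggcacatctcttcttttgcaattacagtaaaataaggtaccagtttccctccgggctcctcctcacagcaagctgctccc
The Grem1 window is rich in G and C (72.0%, against a median of 52.4% over 32851 promoter windows) and holds 1 match to GGCGCC, which starts 78 bases before the gene. That motif occurs in 9.59% of all windows. The Inhba window has 43.2% G and C and holds 1 match, to TATAAA, 91 bases before the start, a motif found in 12.4% of windows. Neither window holds GGAATG (in 12.6% of all windows), AGAACA (16.1%) or TGANTCA (6.75%), and they share no motif among the 5. None of the 5 was found before Bmp4. The RefSeq windows of Id2, Id3 and Bmpr1a lie inside the gene spans given here for them and are not described. These are matches of letters and show no binding.

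Fst, the gene of follistatin, stood between 19.2 and 45.6 FPKM in the 6 libraries. Of 9907 genes listed in all tables with at least 5 FPKM in the highest library, 60.3% had a smaller SD over the 6 libraries. The SD is that of log2(FPKM + 1) after subtracting the median difference of each library from the mean library. Fst (ENSMUSG00000021765, chromosome 13, 114452290 to 114458951, minus strand) stood at 30.7 FPKM in CD137+ PBS, 45.6 in CD137+ DEX 1, 39.7 in CD137+ DEX 2, 19.2 in PDGFRα+ PBS, 33.6 in PDGFRα+ DEX 1 and 21.4 in PDGFRα+ DEX 2. Both libraries numbered DEX 1 were above their PBS library, by 0.50 and 0.53 log2 units, short of 2-fold. PDGFRα+ was lower in the between-type table, at -0.65. Per length, Fst was 5.31 and 7.30 times Inhba in CD137+ PBS and CD137+ DEX 1 and 1.13 and 1.51 times it in PDGFRα+ PBS and PDGFRα+ DEX 2. In the libraries that stood apart the order was turned, with Inhba at 1.53 times Fst in CD137+ DEX 2 and 3.20 times Fst in PDGFRα+ DEX 1. Fst thus exceeded Inhba at the RNA level in 4 libraries and not in the other 2. The ratio leaves out the antagonist gene Fstl3 (13.0 to 59.6 FPKM) and the activin subunit gene Inhbb (7.84 to 43.7 FPKM).

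Bmpr1a, the type I receptor through which BMP2 and BMP4 act, was the most even of the 9 genes. Bmpr1a (ENSMUSG00000021796, chromosome 14, 34410734 to 34503341, minus strand) stood at 30.2 FPKM in CD137+ PBS, 29.9 in CD137+ DEX 1, 29.1 in CD137+ DEX 2, 28.3 in PDGFRα+ PBS, 35.2 in PDGFRα+ DEX 1 and 31.3 in PDGFRα+ DEX 2. The highest was 1.25 times the lowest, and no neighbours in this order were apart. Its log2 differences were -0.06, 0.07 and 0.32 in the CD137+, PDGFRα+ and between-type tables. Across the same 9907 genes, 7.46% had a smaller SD over the 6 libraries, against 99.5% for Grem1 and 97.9% for Inhba.

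Id1 stood higher than with PBS in 3 of the 4 libraries labelled DEX. Id1 (ENSMUSG00000042745, chromosome 2, 152736251 to 152737410, plus strand) was at 16.4 FPKM in CD137+ PBS, 58.1 in CD137+ DEX 1, 69.3 in CD137+ DEX 2, 13.4 in PDGFRα+ PBS, 55.2 in PDGFRα+ DEX 1 and 17.7 in PDGFRα+ DEX 2. The levels fell into a group of 3 at 13.4 to 17.7 FPKM and a group of 3 at 55.2 to 69.3 FPKM, with neighbours within each group less than 2-fold apart. The log2 difference from PBS was 1.72 for CD137+ DEX 1 (3.55 times PBS), 1.73 for PDGFRα+ DEX 1 (4.13 times), 1.89 for CD137+ DEX 2 across tables and 0.35 for PDGFRα+ DEX 2 across tables. In the between-type table it was -1.69. Unlike Grem1 and Inhba, Id1 was already at its higher level in CD137+ DEX 1, where the adipocyte sum was 2518 FPKM against 3207 FPKM with PBS and the cell division sum 146 against 83.7 FPKM. The group of 3 libraries with high Id1 also had the 3 highest cell division sums. These were 146 FPKM in CD137+ DEX 1, 256 in CD137+ DEX 2 and 186 in PDGFRα+ DEX 1. The sums were 83.7 FPKM in CD137+ PBS, 42.0 in PDGFRα+ PBS and 39.2 in PDGFRα+ DEX 2. The part of cell division in Id1 was not tested.

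Id2 and Id3 did not share this pattern. Id2 (ENSMUSG00000020644, chromosome 12, 25093799 to 25097140, minus strand) stood at 11.1 FPKM in CD137+ PBS, 28.2 in CD137+ DEX 1, 44.2 in CD137+ DEX 2, 25.2 in PDGFRα+ PBS, 29.05 in PDGFRα+ DEX 1 and 31.8 in PDGFRα+ DEX 2. CD137+ PBS was the low library and the other 5 were less than 2-fold apart. The difference from PBS was 1.22 log2 units for CD137+ DEX 1 and -0.04 for PDGFRα+ DEX 1. Id3 (ENSMUSG00000007872, chromosome 4, 136143497 to 136145755, plus strand) stood at 29.8 FPKM in CD137+ PBS, 61.7 in CD137+ DEX 1, 137.4 in CD137+ DEX 2, 173 in PDGFRα+ PBS, 83.9 in PDGFRα+ DEX 1 and 179 in PDGFRα+ DEX 2. In CD137+ cells the libraries labelled DEX were the higher ones, by 0.97 log2 units for DEX 1, just short of 2-fold, and by 2.04 for DEX 2 across tables. In PDGFRα+ cells DEX 1 was below PBS, with a difference of -1.28, and DEX 2 was level with it at 0.014. With PBS, Id3 was 2.64 units higher in PDGFRα+ than in CD137+ cells across tables, 5.81 times the FPKM, and in the between-type table the difference was 0.59.

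**Figure D2:**
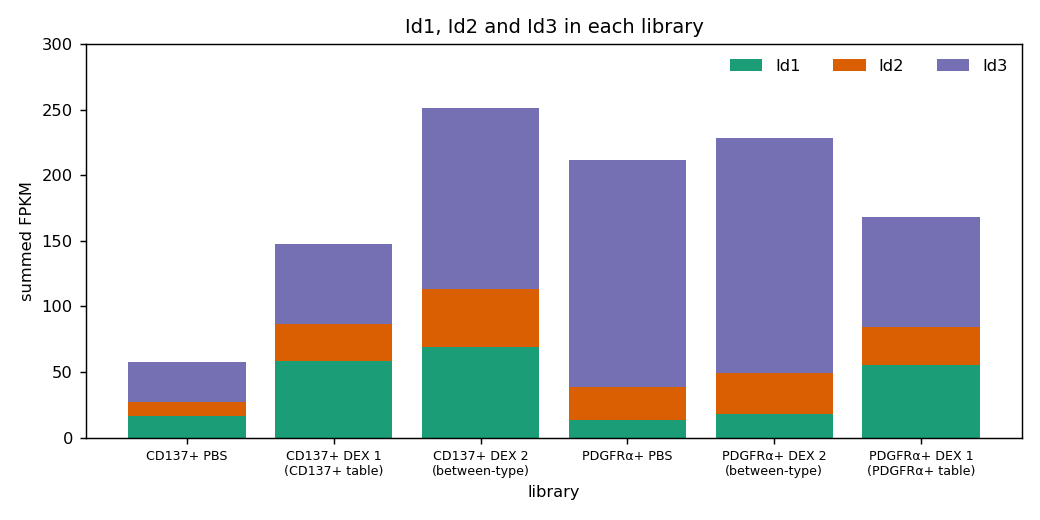
Summed FPKM of Id1, Id2 and Id3 (vertical axis, linear, from 0) in the 6 libraries (horizontal axis), stacked by gene, without error bars because there is 1 sample per group. Id3 is the largest share in every library, and Id1 takes 6.30% and 7.76% of the sum in PDGFRα+ PBS and PDGFRα+ DEX 2 against 27.6% to 39.3% in the other 4 libraries.

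Both the sum and the makeup of the Id family differed between the libraries. The sum of the 3 genes was 57.3 FPKM in CD137+ PBS, 148 in CD137+ DEX 1, 251 in CD137+ DEX 2, 212 in PDGFRα+ PBS, 168 in PDGFRα+ DEX 1 and 228 in PDGFRα+ DEX 2. Id3 was 13.0 times Id1 in PDGFRα+ PBS and 10.1 times Id1 in PDGFRα+ DEX 2. In the other 4 libraries it was 1.06 to 1.98 times Id1. PDGFRα+ DEX 1 and PDGFRα+ PBS thus had similar Id totals with Id1 and Id3 in different proportions.

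**Figure D3:**
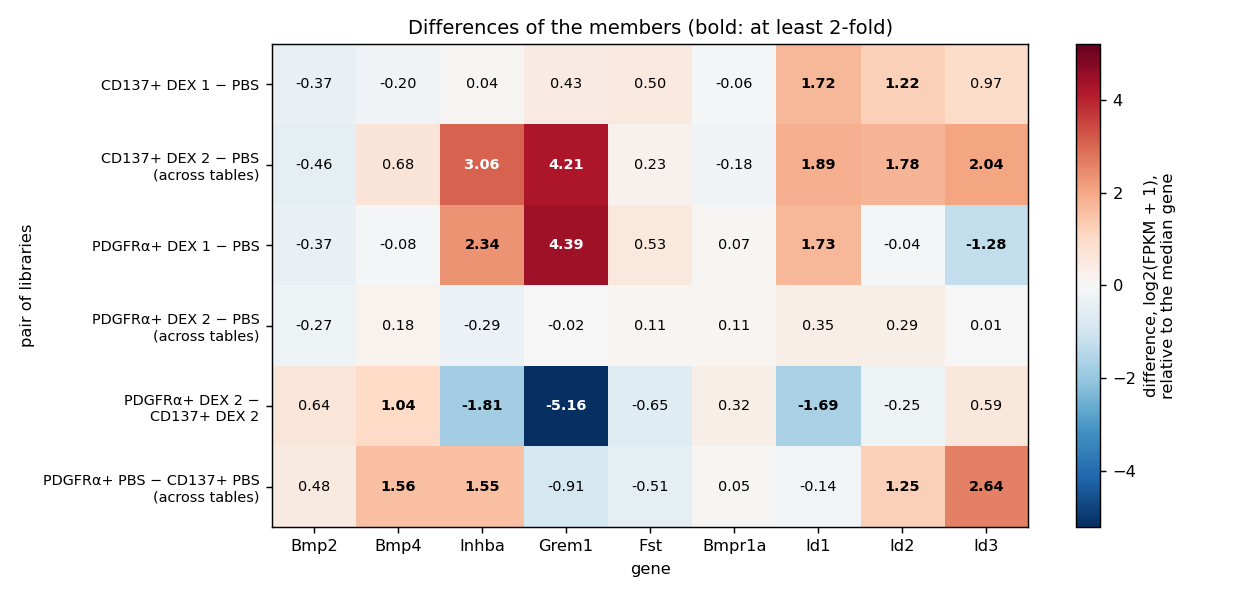
Differences of log2(FPKM + 1), relative to the median gene, for the 9 genes (horizontal axis) in 6 pairs of libraries (vertical axis), with the value printed in each cell and in bold where the difference is at least 2-fold with 1 FPKM or more in the higher library. The row of PDGFRα+ DEX 2 against PBS holds no bold value, and the row of CD137+ DEX 2 against PBS holds 5.

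Counted together, 2 of the 7 genes that reached 1 FPKM were apart in the CD137+ table, Id1 and Id2, both higher with DEX, where 1.06% of all genes were apart (0.406% higher and 0.658% lower). Without the median shift Id3 was apart as well, at 1.02. In the PDGFRα+ table, 4 of 9 were apart, Grem1, Inhba and Id1 higher and Id3 lower, where 21.1% of all genes were apart (9.38% higher and 11.7% lower). Between the cell types with DEX 2, 4 of 8 were apart, Bmp4 higher in PDGFRα+ and Grem1, Inhba and Id1 lower, where 19.9% of all genes were apart (12.6% higher and 7.31% lower). Without the median shift Bmp4 was not apart there, which left 0 higher and 3 lower. The median difference of these genes was 0.50, 0.07 and -0.45 in the 3 tables, with the median of all genes tested at 0.00, 0.01 and 0.02. The authors' deposited table gave q under 0.05 for Id1, Id2 and Id3 in the CD137+ table (3.72% of all genes), and for Grem1, Inhba and Id1 in both the PDGFRα+ (15% of all genes) and the between-type table (13.2%). Those q-values rest on 1 library per group.

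Most of these counts were others with the other DEX library of the same label. With CD137+ DEX 2 set against CD137+ PBS across tables, 5 of 8 genes were apart, Grem1, Inhba, Id1, Id2 and Id3, all higher, where 12% of all genes were apart (4.76% higher and 7.28% lower). With PDGFRα+ DEX 2 set against PDGFRα+ PBS, which share a sheet number, 0 of 8 were apart and 0.169% of all genes were (0.0562% higher and 0.112% lower). With PBS in both, PDGFRα+ stood higher than CD137+ cells in Bmp4, Inhba, Id2 and Id3, 4 of 9 (13.9% of all genes apart, 8.48% higher and 5.39% lower). Between the libraries numbered DEX 1 it stood higher in Bmp4, Grem1 and Inhba, 3 of 8 (14.1% of all genes apart, 6.66% higher and 7.41% lower). These comparisons share their PBS or DEX libraries with those of the own tables. The 2 libraries labelled PDGFRα+ DEX differed from each other in Grem1, Inhba, Id1 and Id3 (20.2% of all genes apart, 11.6% higher in DEX 2 and 8.61% lower), and the 2 labelled CD137+ DEX in Grem1, Inhba and Id3 (9.34% of all genes, 3.17% higher in DEX 2 and 6.17% lower). CD137+ DEX 2 and PDGFRα+ DEX 1, of different cell type and number, were apart in none of 8 (6.86% of all genes, 1.45% higher in the former and 5.41% lower). Within the sheet numbers, DEX against PBS can be read in 1 pair of each cell type, and there Grem1 and Inhba were not apart in either, and Id1 and Id2 were apart in the CD137+ pair and not in the PDGFRα+ pair. With 1 library in each, that difference between cell types was not tested.

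Among the other genes of the pathway, those of chordin, chordin-like 1 and the receptor ACVRL1 were highest in PDGFRα+ PBS and PDGFRα+ DEX 2, where Grem1 was lowest. In the CD137+ table, 1 of 43 measured genes was apart: Smad7, which encodes an inhibitory Smad induced by the pathway (3.12 FPKM with PBS and 8.399 in CD137+ DEX 1, log2 difference 1.14). In the PDGFRα+ table, 4 of 46 were higher in DEX 1 and 9 lower, with a median of 0.09. Without the median shift 8 were higher and 8 lower. With 45 measured in the between-type table, 8 were higher in PDGFRα+ DEX 2 and 6 lower, with a median of 0.02. The share of all genes apart was 1.06%, 21.1% and 19.9% in these tables. With PDGFRα+ DEX 2 against PBS, 0 of 44 were apart.

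Chrdl1 (chordin-like 1) stood at 29.02 FPKM in PDGFRα+ PBS, 2.38 in PDGFRα+ DEX 1 and 39.9 in PDGFRα+ DEX 2, and at 0.249 in CD137+ DEX 2 and 2.44 to 2.95 in the CD137+ table. Chrd (chordin) stood at 18.8 FPKM in PDGFRα+ PBS, 2.25 in PDGFRα+ DEX 1, 18.1 in PDGFRα+ DEX 2 and 1.80 in CD137+ DEX 2. In CD137+ PBS and CD137+ DEX 1 it stood at 6.21 and 5.82 FPKM. Both BMP antagonists were thus low where Grem1 was high. In the CD137+ table, where Grem1 was low, they were also well below their PDGFRα+ PBS levels.

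Among the ligands, Bmp6, a BMP expressed in fat, was lower in PDGFRα+ DEX 1 (2.74 FPKM) than with PBS (8.81 FPKM), a difference of -1.63, and higher in PDGFRα+ DEX 2 (9.22 FPKM) than in CD137+ DEX 2 (3.07 FPKM). Inha, the α subunit that turns βA into inhibin, an opponent of activin, stood at 5.65 FPKM in PDGFRα+ PBS and 1.47 in PDGFRα+ DEX 1, a difference of -1.67. With 1.19 FPKM in CD137+ DEX 2, Inha was lowest in the libraries where Inhba was highest. Gdf11, an activin-like ligand, went the other way (1.33 and 6.98 FPKM), and Gdf10 was lower in PDGFRα+ DEX 1 (16.9 and 6.46 FPKM). Gdf6 stood at 5.49 FPKM in PDGFRα+ PBS and 14.8 in PDGFRα+ DEX 1.

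Of 13 receptors and co-receptors in the PDGFRα+ table, 4 were lower in DEX 1 and none higher. Of all genes, 11.7% were lower there and 9.38% higher. Acvrl1, the type I receptor ALK1, stood at 70.6 FPKM with PBS and 9.49 in DEX 1 (-3.01), and at 66.1 in PDGFRα+ DEX 2. In CD137+ PBS and CD137+ DEX 1 it stood at 19.9 and 22.4 FPKM. Acvr1b, the type I receptor for activin, stood at 31.4 and 8.15 FPKM (-2.07), and Tgfbr3, the co-receptor betaglycan, at 71.3 and 32.3 FPKM (-1.36). Rgma, a BMP co-receptor, was the remaining one. Between the cell types with DEX 2, Acvrl1 (2.33), Acvr1b (1.53) and Rgma (1.41) were higher in PDGFRα+, and Acvr2a and Bmpr1b lower, among 12. Of all genes, 12.6% were higher in this pair and 7.31% lower. Acvr1b, at 10.9 FPKM in CD137+ DEX 2, was thus lowest in the libraries with the most Inhba.

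Among the Smads and their ligases, Smad7, Smad6 and Smurf1 were apart in at least 1 of the 3 tables. Smad1, Smad2, Smad3, Smad4, Smad5 and Smad9 were not apart in any of the 3 tables, although Smad2 came close in the PDGFRα+ table (7.31 FPKM with PBS and 18.1 in DEX 1, log2 difference 0.96). Without the median shift Smad2 passed 2-fold there, at 1.20, and in the between-type table, at -1.01, and it was apart between the libraries labelled PDGFRα+ DEX, at -1.003. Smurf1, a ubiquitin ligase for Smads, stood at 8.41 FPKM in PDGFRα+ PBS and 24.4 in DEX 1 (1.19), and at 23.1 in CD137+ DEX 2 and 7.48 in PDGFRα+ DEX 2 (-1.29). Smad6, an inhibitory Smad induced by BMPs, stood at 17.1 FPKM in CD137+ DEX 2 and 5.97 in PDGFRα+ DEX 2 (-1.16). The E protein genes Tcf3, Tcf4 and Tcf12, whose products the Id proteins bind, were not apart in any table and stood at 12.4 to 32.9 FPKM. Id4, at 3.35 to 6.01 FPKM, was the lowest gene of the Id family in each library.

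**Figure D4:**
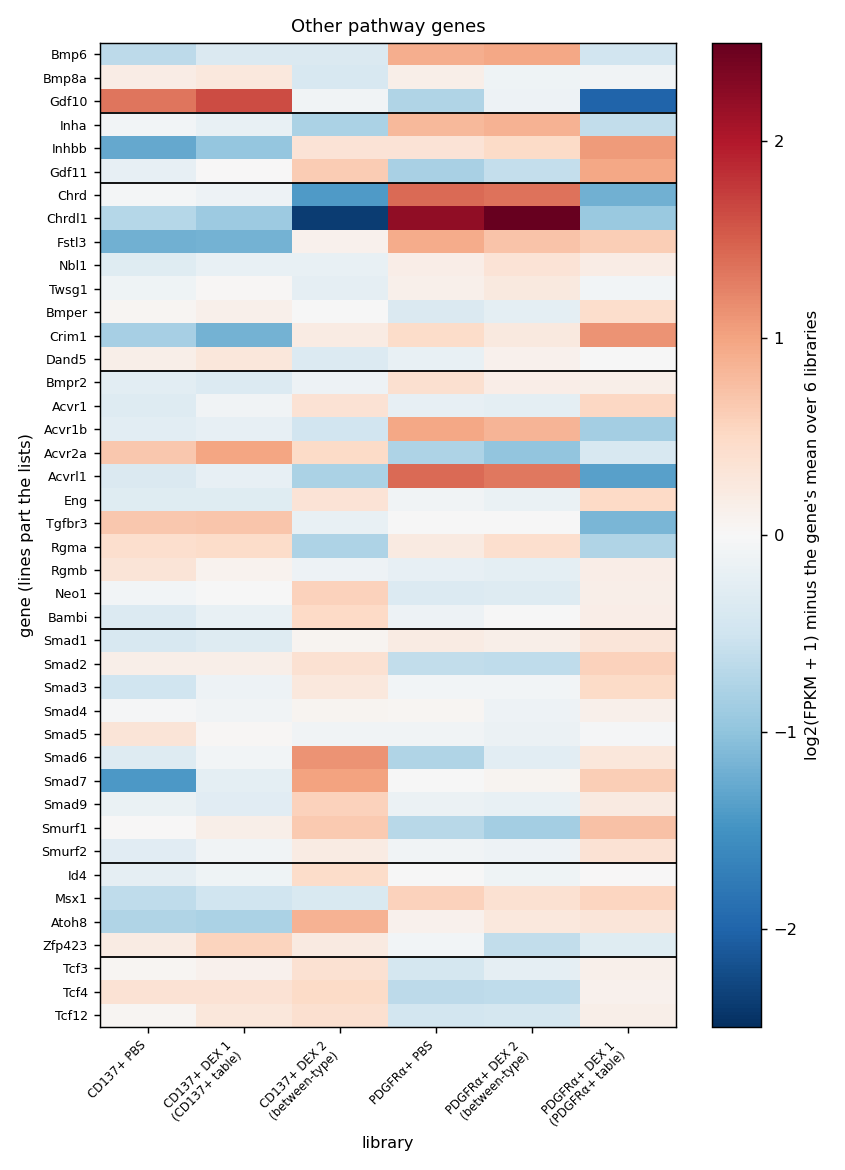
Deviation of log2(FPKM + 1) from each gene's own mean over the 6 libraries (colour) for 42 other pathway genes listed in all tables with at least 1 FPKM in the highest library (vertical axis, lines part the lists) in the 6 libraries (horizontal axis). Chrd, Chrdl1 and Acvrl1 are highest in PDGFRα+ PBS and PDGFRα+ DEX 2, which resemble each other throughout.

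Other genes resembled these genes in their profile over the 6 libraries. Likeness was the root mean square difference between profiles of log2(FPKM + 1) among 9907 genes. The median difference of each library from the mean library was subtracted first, and each gene was then centred on its own mean. With 6 libraries likeness ranks genes and tests nothing. Nearest to Grem1 were Tm4sf1 (0.67), Akr1c18 (0.73) and Has2 (0.78), which encode a membrane protein, a steroid-metabolising enzyme and a hyaluronan synthase. Has2 stood at 22.6 FPKM in CD137+ DEX 2 and 24.5 in PDGFRα+ DEX 1 and at 1.52 to 3.30 FPKM in the other 4 libraries. Nearest to Inhba were Ctgf (0.26), Serinc2 (0.27) and Cdh6 (0.31), Ctgf being a matricellular growth factor gene at 341 FPKM in CD137+ DEX 2 and 598 in PDGFRα+ DEX 1. Nearest to Id1 were Dusp10 (0.27), Klf6 (0.27) and Gdf15 (0.28), and to Id2 Fosl1 (0.24), Gadd45a (0.24) and Smad7 (0.29). Nearest to Id3 were Zfp57 (0.33), Adora2b (0.35) and Eps8 (0.35), and to Bmp4 Sphk1 (0.11), Pstpip1 (0.13) and Cox6b2 (0.16). Nearest to Fst were Lrp12, Fam173b and Aida (0.04 to 0.10), to Bmp2 Fam210b, Tns1 and Brwd1 (0.06 to 0.09), and to Bmpr1a Zfand3, Arfip2 and Zfand6 (0.03 to 0.04). The nearest genes of even members are close because many genes are even. Among the 9 genes themselves Inhba ranked 87th from Grem1 and Id1 179th. The rank depends on the gene started from: Grem1 ranked 2154th from Inhba and 9152nd from Id1. From Id3, Bmp4 ranked 129th and Id2 158th.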

How the data were processed

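The members and gene lists were chosen with earlier results of these data known. Trizol RNA was made into libraries with an Illumina TruSeq RNA kit (per the protocols of the labels). The submitters' processing notes name Cufflinks, Cuffdiff and mm10. The aligner is not given in the sources used here, nor is the annotation. In 3 tables the authors deposited FPKM with their log2 ratio, and a deposited p-value and q-value for each gene, per the file headers. The q-values come from 1 library per group. Every per-sample column was mapped by its name, and 0 were left over. Depth is unknown, so no counting interval is given. Genes whose higher value was below 0.386 FPKM do not occur in the tables.

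From the FPKM, log2(FPKM + 1) differences were computed and set relative to the median difference of genes with 1 FPKM or above in both. Differences across tables were treated alike, although tables were normalized separately. No test was made. Of the lists, up to 3 called genes per list and comparison were named by size, plus further genes where a count was 5 or fewer. Where a symbol had several identifiers (11, 11 and 9 symbols), that with the highest mean was used. Coordinates are those of GENCODE M21 (GRCm38), since most deposited starts lie 1 base lower. For some genes the deposited span, to which the FPKM belongs, differs by more. It starts at 46379413 for Bmp4, ends at 16027211 for Inhba and at 25096092 for Id2, and runs from 114452261 to 114458730 for Fst. Without strand-marked reads, antisense genes annotated at Inhba, Fst, Bmpr1a and Bmp4 cannot be told apart from them. Of the pathway genes counted, 1 is not reported by name or drawn. Scripts were tested on simulated data. Alternatives were a pseudocount of 0.1 or 5 FPKM, a minimum level of 0 or 10 FPKM, 1.5-fold and 4-fold calls, no median shift, upper quartile scaling, the authors' log2 ratio, and exchange of DEX columns between tables. Python 3.11.15, numpy 2.4.6, pandas 2.3.3 and matplotlib 3.10.9 were used.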

Additional observations from a re-analysis of the deposited data

Results flagged for a closer look

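Id3 went in opposite directions in the cell types. The log2 difference between DEX and PBS was 0.97 in the CD137+ table (29.8 FPKM with PBS and 61.7 with DEX 1) and -1.28 in the PDGFRα+ table (173 and 83.9 FPKM). The difference between the cell types was not tested, because each has 1 sample per condition. With the DEX libraries of the between-type table the values were 2.04 and 0.014. The difference in the PDGFRα+ table is between libraries of different sheet numbers.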

How the results depend on the processing

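Of 243 differences of the 9 genes under alternatives other than the exchange of DEX columns, 229 kept their call. Among those called in the main setting, 0 turned direction. Small differences that were not called could change sign. Without the median shift, Bmp4 in the PDGFRα+ table went from -0.08 to 0.16 and Id2 from -0.04 to 0.20. In the CD137+ table the members apart numbered 2, 0 at 4-fold, and 3 at 1.5-fold or without the median shift, where Id3 was gained (1.02 without the shift). The other pathway genes apart numbered 1, but 2 with a pseudocount of 0.1 FPKM or the authors' log2 ratio, and 0 with a pseudocount of 5 FPKM, a minimum of 10 FPKM or 4-fold calls. In the PDGFRα+ table the members numbered 4, and 2 at 4-fold, and the other genes 13, but 7 with a pseudocount of 5 FPKM and 4 at 4-fold. In the between-type table the members numbered 4, and 1 at 4-fold, and the other genes 14, but 6 with a pseudocount of 5 FPKM, 8 with a minimum of 10 FPKM, 25 at 1.5-fold and 4 at 4-fold. A higher fold or minimum leaves fewer genes by construction.

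Exchange of the DEX columns moved the CD137+ counts to 5 members and 10 other genes and the PDGFRα+ counts to 0 and 0. In PDGFRα+ cells it turned Grem1 from 4.39 to -0.022, Inhba from 2.34 to -0.29 and Id3 from -1.28 to 0.014. Between the cell types it turned Grem1 from -5.16 to 3.03 and Inhba from -1.81 to 3.83. The cause was not tested. No paired analysis was possible because each group has 1 sample.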

Other observations

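Some pathway genes were listed in only part of the tables. Bmpr1b, a type I BMP receptor, stood at 2.84 FPKM in CD137+ DEX 2 and 2.005 in PDGFRα+ DEX 1, against 0.512 in PDGFRα+ DEX 2 and 0.329 in PDGFRα+ PBS, and was not listed in the CD137+ table. Msx2, a homeobox gene induced by BMPs, stood at 1.47 FPKM in PDGFRα+ DEX 1 and 0.727 in CD137+ DEX 2, against 0.0576 and 0.161 in PDGFRα+ PBS and PDGFRα+ DEX 2. Both were chosen after their values were seen. Atoh8, a helix-loop-helix gene responsive to BMPs, stood at 16.8 FPKM in CD137+ DEX 2 and 4.81 in CD137+ PBS, a log2 difference of 1.48 across tables.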
